A study of Mus musculus with 6 samples.

Results

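Cell cycle and DNA replication genes were compared between medullary thymic epithelial cells of wild-type mice and of mice lacking Aire. The genes were chosen by symbol alone: Mcm2 to Mcm7, numbered Cdc, Cdk, Cdkn1 and Cdkn2 genes, cyclins, Polo-like and Aurora kinases, Bub genes, E2F factors, mitotic kinesins, Mki67, Pcna, Top2a and ribonucleotide reductase, with Cdkn1c left out. This gave 91 probe sets of 69 genes among 12488 probe sets on the array. A probe set is a group of oligonucleotides that together give 1 signal for a transcript. Of the 69 genes, 49 had 1 probe set, 18 had 2, and Bub1 and Plk1 had 3 each. The rule also admits names that are historical, such as Cdc42 and Cdc37, whose products act outside the cycle or in other processes as well, and these are described apart.

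Wild-type cells came from B6/129 F2 mice, and Aire-/- cells from B6/129 F2 mice in which both copies of Aire were disrupted. All animals were 3 to 5 weeks old, and each of the 3 arrays of a genotype held RNA of thymi pooled from 5 mice of both sexes, or 15 animals per genotype. Cells were released with collagenase and dispase, enriched on a density gradient and sorted as CD45-, G8.8+, CDR1int and B7.1hi, which selects mature epithelial cells of the medulla. Before hybridisation the total RNA went through 2 rounds of T7 polymerase amplification, which favours the 3' end of transcripts. Because each array holds a sorted pool, fewer cycling cells and less transcript per cycling cell cannot be told apart.

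A cell commits to division when D-type cyclins with Cdk4 release E2F factors, which switch on genes for DNA synthesis such as cyclin E, Pcna and the Mcm helicase. A later wave of genes for mitosis, among them Cdc20, Plk1 and the mitotic kinesins, is held down in resting cells through a promoter element called CHR, and inhibitors of the Cdkn1 and Cdkn2 families block the kinases. In the thymic medulla, epithelial cells turn over, and Aire is found mainly in mature cells that have largely left the cycle.

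Signals are in arbitrary units after quantile normalization of the 6 arrays, with values under 1.8 raised to 1.8. A signal of 5.53, the 40th percentile of all values, served as the dim limit. Wild-type array 2 stood apart, with a 3' to 5' ratio of beta-actin signal of 95.8 against 4.38 to 13.8 on the other arrays. The probe set for Aire itself read 59.9, 96.4 and 138 on the arrays labelled wild type and 202, 297 and 211 on those labelled Aire-/-. The signal was thus higher where the gene was labelled disrupted, and since the position of the probe set relative to the disruption is not known from the labels, it does not check them. Below, wild type and Aire-/- mean the arrays so labelled, and every direction rests on those labels. H2-Aa, a class II gene on the list of medullary markers, read 1859 to 2045 in wild type and 2331 on each Aire-/- array. Quantile normalization gives equal ranks equal values, so the repeated value is not a measured agreement. Epcam, the G8.8 antigen, read 234, 251 and 130 against 102, 79.8 and 86.9. Cd80, which encodes B7.1, read 3.52, 4.92 and 4.25 against 8.80, 13.1 and 11.8 on the dimmer of its probe sets, and its brighter signal is not given here. The medullary keratins Krt5 and Krt14 lay under the dim limit on all 6 arrays.

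Without regard to pairing, none of the chosen probe sets differed between the genotypes at an adjusted p of 0.05. With the array numbers as pairs 3 did: Ccne1 and, from the names described apart, Cdc42ep4 and Ccnb1ip1. Of the 91, 69 probe sets of 59 genes were above the dim limit on at least 3 arrays and entered the test, a limma model with Benjamini-Hochberg adjustment over 7768 probe sets. Among these 69, 0 were called lower and 0 higher in Aire-/- cells, where 1.38% of all tested probe sets were called lower and 0.348% higher. The smallest adjusted p among them was 0.116, for Cdc42ep4. At an unadjusted p under 0.05, 3 of the 69 (4.35%) were lower and 6 (8.7%) higher, against 7.81% lower and 6.44% higher of all tested probe sets.

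Groups did not overlap, with every array of a genotype beyond every array of the other, for 4 tested members on the lower side (5.8%) and 8 on the higher side (11.6%). The shares of all tested probe sets were 10.1% on the lower side and 10.4% on the higher side. The members' counts were therefore near or under the background in both directions. Without wild-type array 2, 7 members were lower without overlap (10.1%) and 9 higher (13%), against 13.9% and 15.6% of all tested probe sets, again with 0 members called. The median log2 difference, Aire-/- minus wild type, was -0.01 over the 69 members and 0.05 over all tested probe sets, and 35 members lay below 0 and 34 above. A difference of more than 2-fold was seen for 7 of the 69 (10.1%), 2 lower and 5 higher, against 13.1% of all.

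From the data, not the labels, the replicate numbers were taken to pair arrays, as described with the processing. A fit with the number as a replicate block called 0 members lower and 3 higher (4.35%): Ccne1, Cdc42ep4 and Ccnb1ip1. With that block, 3.37% of all tested probe sets were called lower and 1.93% higher. Precision limits what could be seen. The median standard error of a member's log2 difference was 0.40, and the 95% interval reached a median of 0.88 to each side. For 14 tested probe sets, among them Cdk4, Ccnd2, Cdc20 and Rrm1, the interval lay within 1 log2 unit of 0, which bounds a difference at 2-fold; a Cdk4 probe set that is nearer the dim limit had a wider interval.

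**Figure D1:**
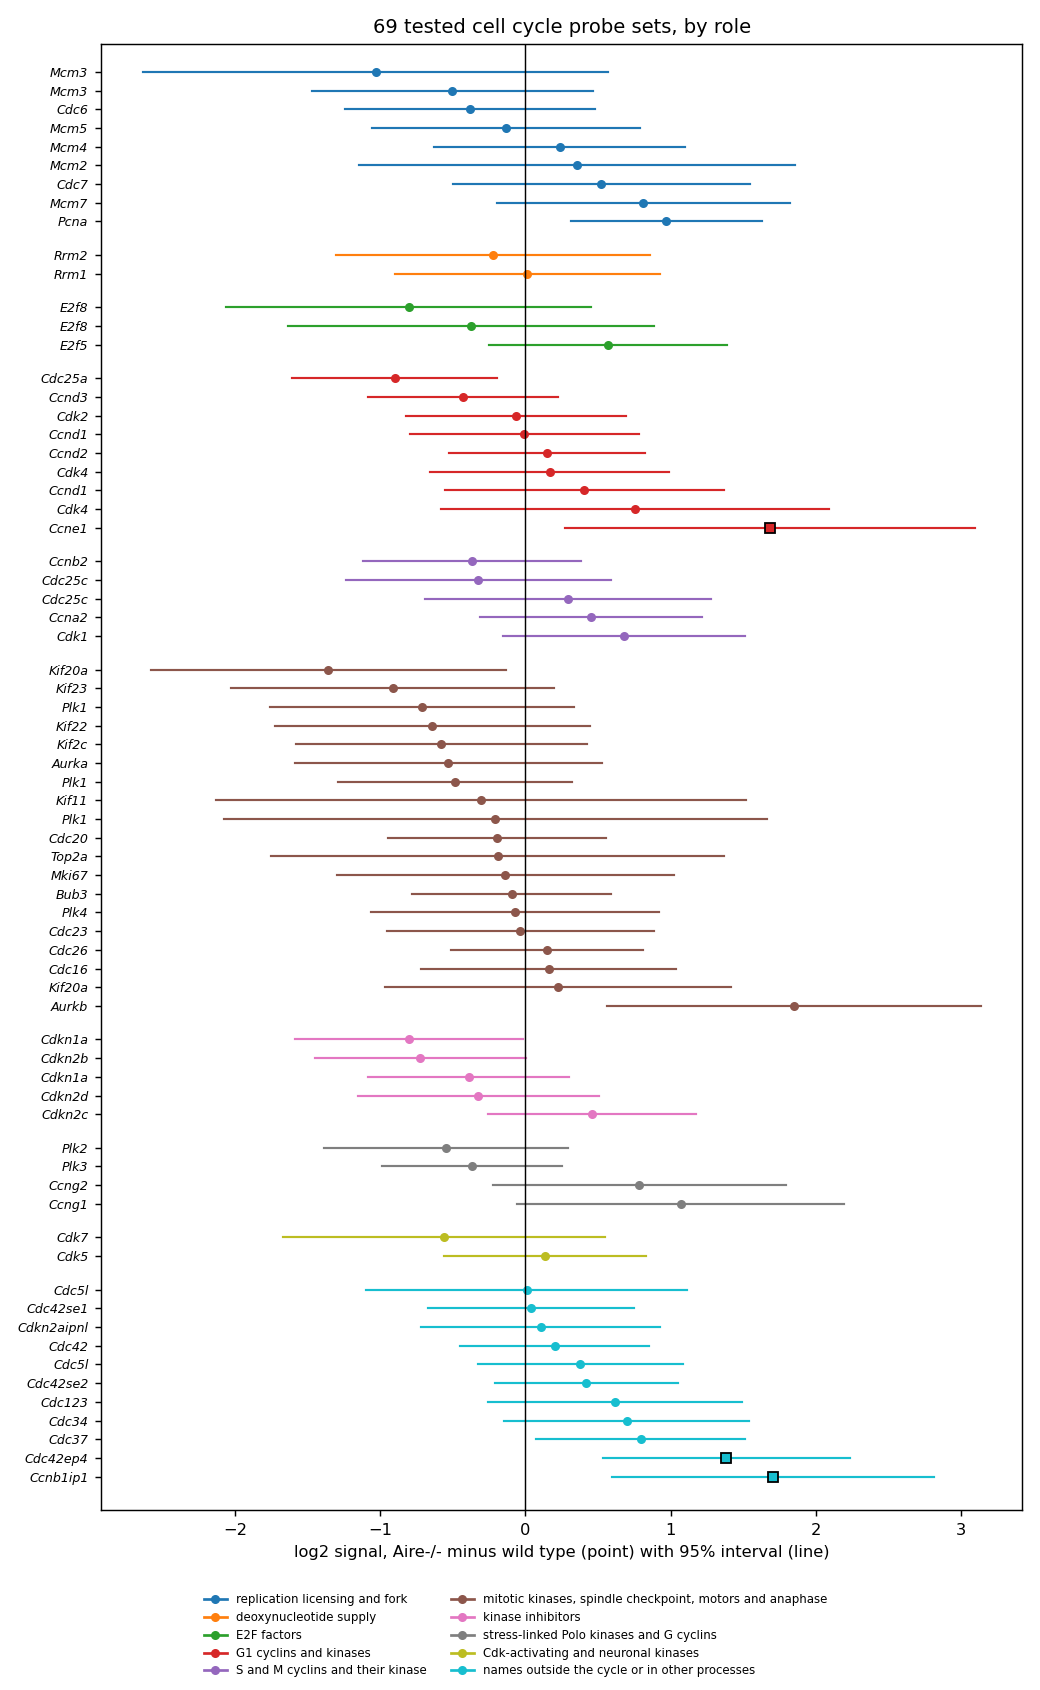
Log2 difference in signal (Aire-/- minus wild type, x axis) with 95% interval for each of the 69 tested probe sets, 3 arrays per genotype, coloured by the role of the gene; squares outlined in black are the 3 called with the replicate block. Of the 69 intervals 9 exclude 0 before adjustment, and all 11 points of the list of names outside the cycle or in other processes lie right of 0.

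Among genes of replication licensing and the fork, Pcna gave the clearest separation. Pcna, the sliding clamp that holds DNA polymerase on its template, read 69.8, 44.0 and 59.0 on wild-type arrays and 122, 111 and 101 on Aire-/- arrays. The lowest Aire-/- array was above the highest wild-type array. The log2 difference was 0.97 (SE 0.30, n = 3 per genotype, 95% interval 0.31 to 1.63), or 1.96-fold, with limma's adjusted p at 0.153 and at 0.0549 with the replicate block. The geometric means were 56.6 (SD 0.34 on the log2 scale, n = 3) and 111 (SD 0.13, n = 3).

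The Mcm helicase, which unwinds DNA at the fork, did not follow Pcna as a group. Mcm7 read 7.33, 3.42 and 8.92 in wild type and 12.1, 11.3 and 8.85 in Aire-/- cells. Its ranges overlapped by a narrow margin, at wild-type array 3 and Aire-/- array 3. It differed by 0.81 on the log2 scale (SE 0.46, adjusted p = 0.469, limma), and by 0.40 without wild-type array 2. Mcm3 lay on the other side on both probe sets: 100062_at read 10.1, 24.4 and 17.8 against 2.02, 13.9 and 18.1, and 160496_s_at read 8.08, 23.7 and 21.7 against 9.53, 11.97 and 12.7. The first differed by -1.03 on the log2 scale and the second by -0.51, and the low first value came from Aire-/- array 1 alone. Mcm5 read 8.08, 22.4 and 20.5 in wild type and 14.2, 14.1 and 14.1 in Aire-/- cells, so the wild-type arrays spanned the others. Mcm2 and Mcm4 differed by 0.36 and 0.23 with overlapping groups, and Mcm6 was under the dim limit on all arrays. Cdc6, which loads the helicase at origins, differed by -0.38, and Cdc7, the kinase that fires them, by 0.52, both with overlap. Over the 9 tested probe sets of this role 4 lay below 0 and 5 above, with a median of 0.23.

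Ribonucleotide reductase, which makes deoxynucleotides, showed small differences and wide overlap. Rrm1, the large subunit, read 18.3, 7.83 and 21.4 in wild type and 13.5, 16.9 and 13.8 in Aire-/- cells. The small subunit Rrm2 read 9.69, 6.06 and 16.4 against 9.85, 12.2 and 5.02. In both genes the wild-type range covered most of the Aire-/- range, and the log2 differences were 0.01 (SE 0.41) and -0.23 (SE 0.49). For Rrm1 the value depended on wild-type array 2: without it the difference was -0.43, and the groups no longer overlapped.

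E2F factors were mostly dim. E2f1 and E2f3, the activators of S phase genes, did not pass the filter. On the E2f1 probe set 161427_f_at the signals were 2.17, 1.98 and 3.77 in wild type and 5.43, 3.90 and 5.02 in Aire-/- cells, without overlap but all under the dim limit. E2f3 read 1.82, 5.07 and 4.97 in wild type and lay at the floor on all Aire-/- arrays. E2f5, a repressor that works with pocket proteins, read 22.1, 10.5 and 23.1 against 28.6, 25.7 and 23.5, without overlap and by a narrow margin, for a log2 difference of 0.57 that became 0.20 without wild-type array 2. The atypical repressor E2f8 differed by -0.80 on 103203_f_at and -0.38 on 103204_r_at, with overlapping groups on both.

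Among G1 regulators, Ccne1 had the smallest adjusted p of all members in the fit with the replicate block. Ccne1, cyclin E, which with Cdk2 drives entry into S phase, read 19.98, 5.27 and 3.43 on wild-type arrays 1, 2 and 3 and 42.7, 12.8 and 21.9 on the Aire-/- arrays of the same numbers. Array 1 was highest in both genotypes, so the groups overlapped, while within each number the Aire-/- array was higher. Aire-/- minus wild type was 1.68 on the log2 scale (SE 0.64, 95% interval 0.27 to 3.10), or 3.21-fold, and limma gave an adjusted p of 0.26 without the block and 0.0265 with it. Ccne2 was at or near the floor throughout, between 1.80 and 2.12.

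Cdc25a, the phosphatase that activates Cdk2, lay on the lower side in Aire-/- cells. Its probe set 97390_at read 29.6, 23.4 and 31.4 in wild type and 13.8, 12.9 and 18.7 in Aire-/- cells. Every Aire-/- array was lower than every wild-type array. The log2 difference was -0.90 (SE 0.32, 95% interval -1.60 to -0.20), with adjusted p = 0.224 in limma, and 97389_at lay at the floor on all arrays and gave no second reading. Ccnd3, a D-type cyclin prominent in lymphoid cells, read 48.4, 51.5 and 50.8 against 30.2, 43.6 and 39.3, without overlap and with a log2 difference of -0.43 (SE 0.30, adjusted p = 0.561).

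The other D-type cyclins and their kinases showed small differences with overlapping groups. Ccnd2 read 166, 100 and 177 in wild type and 156, 182 and 140 in Aire-/- cells, a log2 difference of 0.15 (95% interval -0.53 to 0.82). Ccnd1 differed by 0.41 on 94231_at and by -0.01 on 94232_at, so its probe sets lay on opposite sides of 0. For Cdk4, the partner of D-type cyclins, the brighter probe set 160538_at read 40.7, 21.1 and 52.6 against 37.9, 39.0 and 43.0, a log2 difference of 0.17. The Cdk2 probe set that was tested differed by -0.06. Across the 9 tested probe sets of the G1 role, 4 lay below 0 and 5 above, with a median of 0.15.

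**Figure D2:**
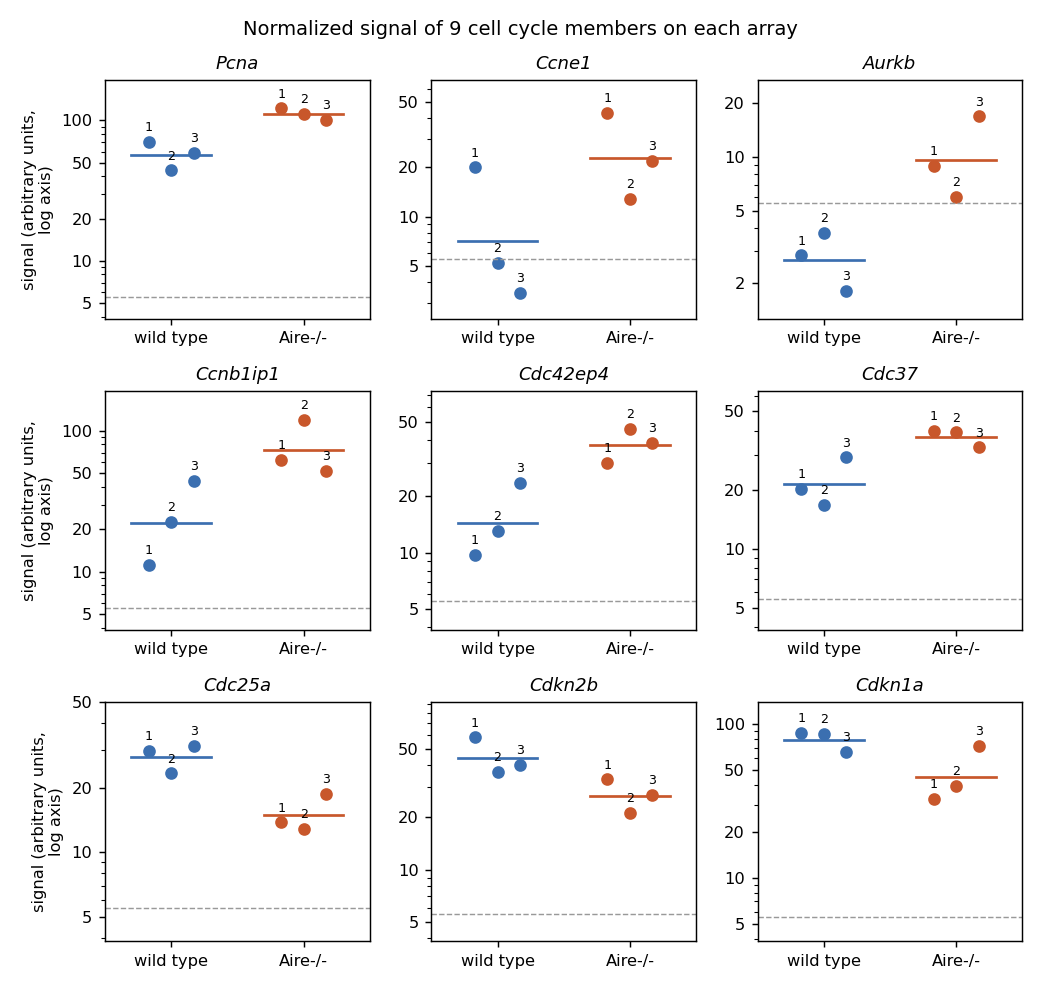
Normalized signal on a log axis for 9 members on each of the 6 arrays; points carry the array number, horizontal bars are geometric means of 3 arrays, and the dashed line is the dim limit of 5.53. Pcna, Aurkb, Ccnb1ip1, Cdc42ep4 and Cdc37 are higher in Aire-/- without overlap, Cdc25a and Cdkn2b are lower without overlap, and Ccne1 and Cdkn1a overlap.

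Cyclins of S phase and mitosis gave no common direction. Cdk1, the kinase that starts mitosis, read 25.3, 19.6 and 50.3 in wild type and 42.3, 49.0 and 49.4 in Aire-/- cells. Wild-type array 3 was the highest of the 6, and the other wild-type arrays lay below all Aire-/- arrays. Its log2 difference was 0.68 (SE 0.38, adjusted p = 0.464, limma), and 0.39 without wild-type array 2. Ccna2, cyclin A, read 14.1, 23.02 and 25.6 against 22.2, 30.0 and 31.8, and Ccnb2, a B-type cyclin, read 27.3, 25.2 and 28.8 against 14.3, 28.2 and 22.8. The first differed by 0.45 and the second by -0.37, both with overlap. For Cdc25c, the phosphatase that activates Cdk1, the probe set 102934_s_at differed by 0.29 and 102935_at by -0.32. The germ-line cyclin Ccna1 reached the dim limit only on Aire-/- array 3, at 7.20.

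Of 19 tested probe sets for mitotic kinases, the spindle checkpoint, motors and anaphase, 15 lay below 0 and 4 above, with a median log2 difference of -0.20. None was called. Across all tested probe sets 46.9% lay below 0. The count was 12 of 19 on the values as deposited, under median scaling and with a term for 3' bias, and 10 to 14 of 19 when any 1 array was left out, fewest without wild-type array 3 or without Aire-/- array 1.

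Aurkb, the kinase of the chromosomal passenger complex, went furthest the other way. It read 2.83, 3.78 and 1.80 in wild type, all under the dim limit, and 8.91, 6 and 16.8 in Aire-/- cells. The groups did not overlap, and the probe set passed the filter through the Aire-/- arrays alone, so it had to differ. The brighter mean was at least 1.74-fold above the dim limit, and the fitted log2 difference was 1.85 (SE 0.58, adjusted p = 0.168, limma). Aurka, the spindle pole kinase, passed through the wild-type arrays alone, at 5.87, 6.18 and 8.60 against 3.62, 5.23 and 5.44, or at least 1.23-fold lower in Aire-/- cells. For both kinases the filter fixed the direction, and the counts of probe sets below and above 0 and without overlap include them.

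The mitotic kinesins were uneven. Kif20a, which works in cytokinesis, read 16.9, 51.1 and 22.2 against 4.77, 12.3 and 19.5 on 161856_f_at. Aire-/- array 3 lay above wild-type array 1, and the log2 difference was -1.36 (SE 0.55, 95% interval -2.58 to -0.13, adjusted p = 0.293). On its other probe set, 160501_at, the difference was 0.22, and identifiers with an added f, r, s or g mark probes that can match further transcripts or were picked under relaxed rules. Kif23, of the central spindle, read 9.85, 20.3 and 25.3 against 5.10, 8.80 and 16.8, a log2 difference of -0.92 (SE 0.50, adjusted p = 0.456). The 3 probe sets of Plk1, the main mitotic Polo kinase, differed by -0.48, -0.71 and -0.21, all with overlap. Smaller or noisier differences were found for Kif22 at -0.64, Kif2c at -0.58 and Kif11 at -0.30, and for Plk4, the kinase of centriole duplication, at -0.07.

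Genes used as markers of cycling cells showed small differences with wide intervals. Mki67, the Ki-67 antigen, read 11.4, 7.53 and 25.6 in wild type and 8.26, 8.90 and 22.4 in Aire-/- cells, a log2 difference of -0.14 (SE 0.53, 95% interval -1.30 to 1.02). Top2a, which untangles chromosomes, read 3.35, 14.5 and 21.2 against 6.02, 5.60 and 20.5, a log2 difference of -0.19 (SE 0.71). Cdc20, which switches on the anaphase-promoting complex, read 24.7, 37.9 and 27.2 against 31.9, 18.8 and 28.3, a log2 difference of -0.20 (SE 0.34). In each gene the ranges overlapped broadly, and the intervals for Mki67 and Top2a do not bound a difference at 2-fold. Bub3 of the spindle checkpoint differed by -0.10, while all 3 Bub1 probe sets stayed out of the test. The anaphase-promoting complex subunits Cdc16, Cdc23 and Cdc26 differed by 0.16, -0.04 and 0.15.

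Promoter letters were read from RefSeq windows on the assembly GRCm38.p6, covering 250 bases before and 50 after each listed start. The table held 58 of the 69 genes with 68 windows, among 32851 windows in all. The CHR letters TTTGAA, on either strand, were in 21 of the 68 (30.9%) and in 17.9% of all windows. The CCAAT box, letters CCAAT on either strand, was in 38 (55.9%) against 37.4%, and both were in 17 (25%) against 6.95%. An E2F match, any of TTTGGCGC, TTTCCCGC, TTTGCCGC and TTTCGCGC on either strand, was in 10 (14.7%) against 2.26%. The searches were for letters alone, matches of different motifs could overlap, and a match is a description rather than a site.

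The 150 bases before the start are given for 6 members, with every match in capitals in the gene's own direction: TTTGAA or its reverse complement TTCAAA for CHR, CCAAT or ATTGG for the CCAAT box, and the E2F letters. Cdc20, Kif11 and Top2a are mitotic genes with CHR letters close to the start, and Cdk1 holds all 3 kinds of match. Cdc25a holds E2F letters and no CHR letters, and Pcna, on the higher side, holds a CCAAT box alone.
Cdc20 (chr4:118437344-118437493, minus strand): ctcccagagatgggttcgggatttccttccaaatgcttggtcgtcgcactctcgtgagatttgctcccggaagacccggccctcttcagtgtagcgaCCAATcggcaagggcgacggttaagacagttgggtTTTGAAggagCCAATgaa
Kif11 (chr19:37376232-37376381, plus strand): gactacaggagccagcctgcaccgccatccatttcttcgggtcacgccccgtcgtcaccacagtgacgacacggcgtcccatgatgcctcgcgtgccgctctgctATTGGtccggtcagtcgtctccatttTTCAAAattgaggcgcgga
Top2a (chr11:99024190-99024339, minus strand): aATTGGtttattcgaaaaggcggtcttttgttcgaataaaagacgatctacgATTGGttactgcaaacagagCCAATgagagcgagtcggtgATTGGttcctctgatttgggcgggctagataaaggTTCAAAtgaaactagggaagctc
Cdk1 (chr10:69352913-69353062, minus strand): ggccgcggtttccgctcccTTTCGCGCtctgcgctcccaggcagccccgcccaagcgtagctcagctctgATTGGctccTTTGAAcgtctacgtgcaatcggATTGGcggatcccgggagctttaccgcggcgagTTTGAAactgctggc
Cdc25a (chr9:109875429-109875578, plus strand): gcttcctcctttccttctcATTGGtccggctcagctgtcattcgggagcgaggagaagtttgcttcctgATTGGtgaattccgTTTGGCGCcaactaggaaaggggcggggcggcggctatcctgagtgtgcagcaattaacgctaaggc
Pcna (chr2:132253181-132253330, minus strand): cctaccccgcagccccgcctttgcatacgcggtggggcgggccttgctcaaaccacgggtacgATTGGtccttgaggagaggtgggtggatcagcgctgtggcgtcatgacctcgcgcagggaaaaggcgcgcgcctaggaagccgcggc
In Cdc20, Kif11 and Top2a the CHR letters begin 18, 19 and 23 bases before the start, with a CCAAT box further out in each. Cdk1 holds CHR letters at 15 and at 71 bases. Not all mitotic genes with CHR letters shared this layout. Kif23, Plk1 and Aurka held the letters elsewhere in their windows and none in the 150 bases before the start. In Kif2c they began 103 bases before the start, and in Mki67 at 98 and 116.

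Members with CHR letters had lower differences than the others, and most of that lay in the mitotic list. The 20 tested probe sets of 17 genes with CHR letters had 16 below 0 and a median of -0.34, and the 36 of 32 genes without them had 15 below 0 and a median of 0.07. In the mitotic list 12 of 12 probe sets with CHR letters were below 0 (median -0.39), among them those of Kif23, Kif22 and Cdc20. Aurka was also among the 12, and the filter fixed its direction. Plk1 entered with several probe sets, and with 1 probe set per gene the count was 10 of 10. Only 3 mitotic probe sets had promoter windows without CHR letters, and 1 of these was below 0. Aurkb at 1.85, Kif20a at 0.22 and -1.36 and Cdc23 at -0.04, also of the mitotic list, had no promoter window and were not classed. Ccna2 and Cdc25c, from outside the mitotic list, had no window either. Outside that list 4 of 8 were below 0 (median -0.01), including Cdc42ep4 and Cdk1 on the higher side. The count was 8 of 12 with the 3' bias term and 8 to 12 of 12 when any 1 array was left out, fewest without wild-type array 3 or without Aire-/- array 1. No test was made of this split, which was looked at with the values known. For E2F letters, 6 of 8 tested probe sets with them and 25 of 48 without were below 0.

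**Figure D3:**
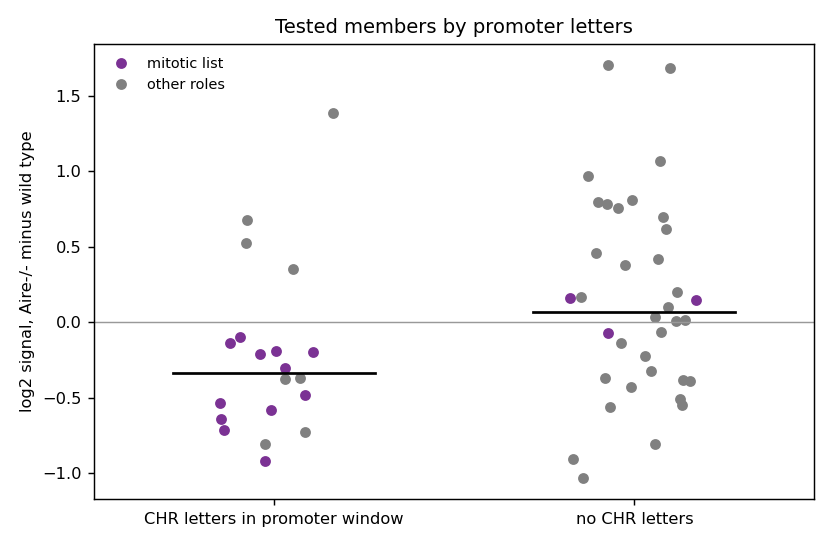
Log2 difference in signal (Aire-/- minus wild type) of tested members with and without the letters TTTGAA in their promoter window; horizontal bars are medians (-0.34 and 0.07), purple points are the mitotic list, and sideways spread is for display only. The 12 mitotic points with the letters all lie below 0, Aurka among them with its direction fixed by the filter. Aurkb, Kif20a and Cdc23 of the mitotic list had no promoter window and are not shown.

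Kinase inhibitors that passed the filter lay mostly on the lower side, 4 of 5 below 0 with a median of -0.39, and none was called. Cdkn2b, the inhibitor p15 of Cdk4, read 58.0, 36.7 and 40.1 in wild type and 33.2, 21.2 and 27.0 in Aire-/- cells. The lowest wild-type array was above the highest Aire-/- array. On the log2 scale the difference was -0.72 (SE 0.33, 95% interval -1.45 to 0.01, adjusted p = 0.353, limma). Cdkn1a, the inhibitor p21, read 87.4, 87.0 and 65.9 against 32.8, 39.8 and 72.3 on 94881_at, and 399, 295 and 337 against 240, 394 and 186 on 98067_at. Both probe sets overlapped between genotypes, and the differences were -0.80 (SE 0.35, adjusted p = 0.337) and -0.39 (SE 0.31, adjusted p = 0.625).

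Cdkn2c, the inhibitor p18, was the exception to this direction, at 19.5, 16.6 and 25.1 against 33.5, 28.2 and 22.4, a log2 difference of 0.46 with overlap. Cdkn2d differed by -0.32. Cdkn1b, the inhibitor p27, was too dim to test on either probe set, although 161010_r_at read 7.83, 5.95 and 4.73 in wild type and 1.80, 4.45 and 4.59 in Aire-/- cells without overlap. Cdkn2a, which encodes p16 and Arf, exceeded the dim limit only on wild-type array 3, at 6.10.

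Stress-linked relatives of the cycle genes were divided. Ccng1, a cyclin induced by p53, read 45.0, 9.65 and 24.98 against 62.2, 34.0 and 47.2, and Ccng2 read 105, 34.5 and 85.9 against 191, 94.7 and 88.3. Each Aire-/- array was above the wild-type array of the same number in both genes, and wild-type array 2 was the lowest of all. Their log2 differences were 1.07 (SE 0.51, adjusted p = 0.375) and 0.78 (SE 0.46, adjusted p = 0.485). Without wild-type array 2 these became 0.47 and 0.30. Plk2 and Plk3, Polo-like kinases of the stress response, lay on the lower side at -0.55 and -0.37. Cdk7, which activates other cyclin-dependent kinases, differed by -0.56, and Cdk5, a kinase mainly of neurons, by 0.13 (95% interval -0.56 to 0.83).

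All 11 tested probe sets of genes with cycle names whose products act outside the cycle or in other processes as well lay above 0, with a median of 0.42, and 2 of the 3 members called with the replicate block were among them. Cdc42ep4, an effector of the small GTPase Cdc42, read 9.69, 13.1 and 23.7 in wild type and 30.2, 45.8 and 38.8 in Aire-/- cells. Every Aire-/- array was higher than every wild-type array. The log2 difference was 1.38 (SE 0.39, 95% interval 0.53 to 2.23), or 2.61-fold, with limma's adjusted p at 0.116 and at 0.0272 with the block.

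Ccnb1ip1, a ubiquitin ligase known from meiotic crossing over, read 11.2, 22.7 and 44.0 against 62.3, 120 and 51.6. The groups did not overlap, although wild-type array 3 came close to Aire-/- array 3. The log2 difference was 1.71 (SE 0.50, 95% interval 0.60 to 2.81), or 3.26-fold, and limma gave an adjusted p of 0.138 without the block and 0.0319 with it. Cdc37, a cochaperone of Hsp90, read 20.1, 16.7 and 29.2 against 39.8, 39.1 and 32.8, a log2 difference of 0.79 (SE 0.33, adjusted p = 0.293), also without overlap. Cdc34, a ubiquitin-conjugating enzyme that also serves the entry into S phase, and Cdc42se2 differed by 0.70 and 0.42 without overlap.

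Cdc42 itself read 263, 140 and 206 in wild type and 247, 213 and 218 in Aire-/- cells, a log2 difference of 0.20 (95% interval -0.45 to 0.85). Wild-type array 2 was the lowest and array 1 the highest of the 6. Groups also overlapped for Cdc123 at 0.62, the splicing factor Cdc5l at 0.38 and 0.01, Cdc42se1 at 0.04 and Cdkn2aipnl at 0.10. Without wild-type array 2 the Cdc123 difference was 0.20. The count above 0 was 10 of 11 on the values as deposited, under median scaling and with array weights, 9 of 11 with the 3' bias term, and 9 or 10 of 11 when any 1 array was left out. On the values as deposited only 38.1% of all tested probe sets lay below 0, so the whole array leaned the same way there.

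A pattern chosen after the values were seen ran with the array number rather than the genotype. Of the 69 tested members, 15 (21.7%) were highest on array 3 of both genotypes, against 12.8% of all tested probe sets. Arrays 1 were highest together for 8 members (11.6%, against 19.3% of all) and arrays 2 for 6 (8.7%, against 15%). The 15 were 1 probe set each of Mki67, Top2a, Mcm2, Mcm4, Cdc7, Kif11, Kif23, Ccna2, Cdk1, Aurka, Plk1, Cdc25a, Cdk4, Cdc5l and Cdc23. Several of these genes are commonly used as marks of dividing cells. For Plk1 it was 93099_f_at, whereas 161292_f_at was highest on array 2 of both genotypes. A second Mki67 probe set, too dim to test, was highest on wild-type array 2 and Aire-/- array 1.

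For Mki67 the number accounted for 94.7% of the variance among arrays and the genotype for 0.981%, and for Top2a the shares were 79.2% and 0.88%. The number shares of Mki67 and Top2a were among the largest of the 69. Over all 69 members the median shares were 39.95% for number and 24.0% for genotype, close to 42.5% and 20.1% over all tested probe sets. The number has more levels than the genotype and so takes a larger share even where neither has an effect. These medians therefore do not show that number outweighs genotype. Mcm2 read 3.25, 4.82 and 11 in wild type and 2.70, 11.4 and 11.8 in Aire-/- cells, and Cdc7 read 5.33, 6.70 and 10.9 against 6.20, 12.9 and 14.5. Mcm4 read 11.8, 8.30 and 16.7 against 16.3, 9.63 and 16.9. In these genes array 3 was the highest of its genotype each time, by a small margin for Mcm2 and Mcm4 in Aire-/- cells.

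What these numbers mean is not stated in the labels. Beta-actin 3' to 5' ratios on the arrays numbered 3 were 13.8 and 13.4, against 5.42 and 4.38 on those numbered 1 and 95.8 and 5.75 on those numbered 2. Summed signal of 24 probe sets for thymocyte and T cell genes was 152, 254 and 207 in wild type and 165, 154 and 255 in Aire-/- cells, so array 3 was the highest only in Aire-/- cells. Of the 13 of these that were tested, 1 was highest on array 3 of both genotypes and 0 were called between genotypes. Rag2 lay at the floor on all arrays and Cd3e did not exceed 4.45, whereas a probe set of Dntt read 18.2 to 60.8 and Cd4 read 6.62 to 16.2. The probe sets highest on array 3 of both genotypes were 3 of 10 for stroma and vessels, 3 of 11 for myeloid cells, 3 of 16 for medullary epithelium, and 0 for B cells, erythroid cells and cortical epithelium. The part of RNA quality and of other cells in the pattern was not tested.

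**Figure D4:**
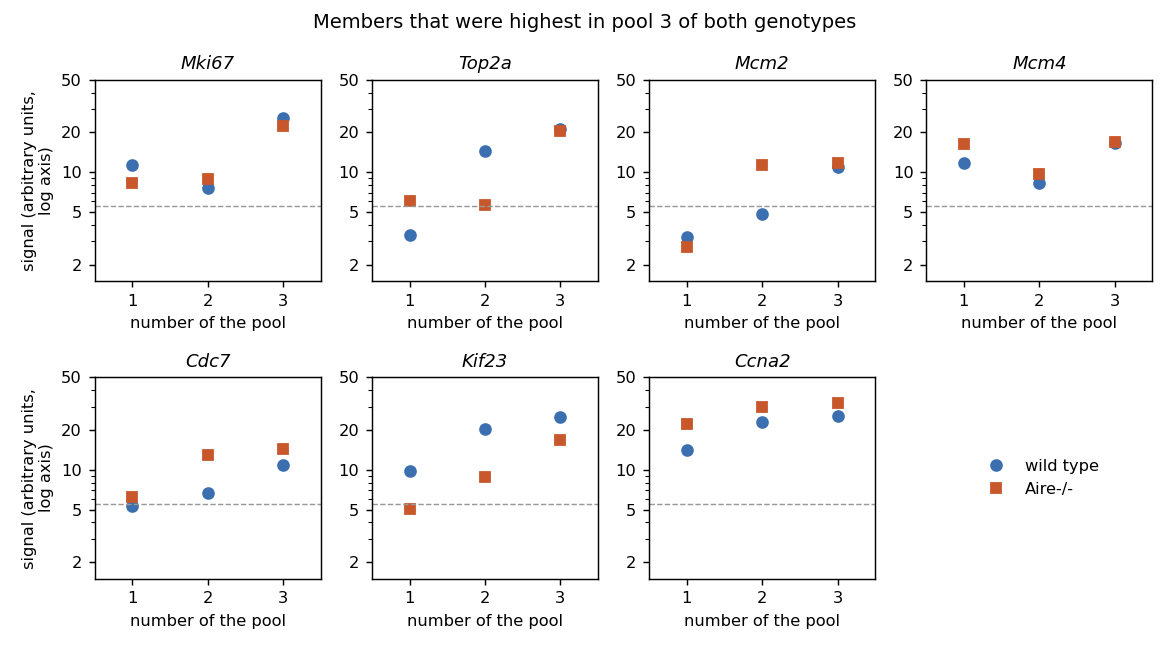
Normalized signal on a log axis of Mki67, Top2a, Mcm2, Mcm4, Cdc7, Kif23 and Ccna2 on the arrays numbered 1, 2 and 3 of each genotype; the dashed line is the dim limit of 5.53. Array 3 is highest in both genotypes for each of these genes, for example at 25.6 and 22.4 for Mki67.

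Of the 22 probe sets that were not tested, 12 were under the dim limit on all arrays and 10 exceeded it on 1 or 2 arrays. For 10 genes no probe set was tested: E2f1, E2f3, Ccna1, Ccne2, Cdkn1b, Cdkn2a, Bub1, Cdc45, Mcm6 and Cdc73. Groups did not overlap for 2 of the 22 on the lower side and 2 on the higher side, against 4.13% and 4.1% of all probe sets not tested. Their signals were mostly under the dim limit: those of E2f1, E2f3 and Cdkn1b given above, and Cdc73 of the Paf1 transcription complex, at 3.13, 4.25 and 3.25 against 6.20, 4.35 and 4.45. Of 9 genes with several tested probe sets, Ccnd1, Kif20a and Cdc25c had them on opposite sides of 0.

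Other genes of the same pathways, taken from lists and not among the members, were likewise without calls. For origin and fork proteins 0 of 26 tested probe sets were called, with a median of 0.27, and for mitosis and chromosome segregation 0 of 29, with a median of 0.20. The latter median lay above 0, opposite to that of the mitotic members. For checkpoint and pocket proteins 0 of 22 were called, with a median of 0.13, and the replicate block called 0 in all 3 lists. Nek2, a centrosome kinase, read 38.4, 40.6 and 20.1 against 11.5, 14.6 and 15.1, a log2 difference of -1.21 (SE 0.36, adjusted p = 0.143, limma). Ezh2, a histone methyltransferase, read 17.4, 26.6 and 35.8 against 42.3, 50.6 and 65.0, a log2 difference of 1.02 (SE 0.36, adjusted p = 0.214). Mad2l1 of the spindle checkpoint differed by 0.74, and Ncaph of condensin by 1.00 on its tested probe set, both without overlap. A second Ncaph probe set, too dim to test, went the other way. It read 3.72, 6.59 and 3.77 in wild type and 1.80, 2.15 and 1.80 in Aire-/- cells, also without overlap. Chek2, the checkpoint kinase, read 16.1, 21.7 and 17.8 against 8.72, 10.1 and 7.32, a log2 difference of -1.09 (SE 0.33, adjusted p = 0.152). Tfdp1, the dimer partner of E2F factors, differed by 0.88 (adjusted p = 0.23) and 0.12 on its tested probe sets.

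Markers of other cells were set beside these results. Summed signal of B cell genes was 79.0 to 137 in wild type and 129 to 148 in Aire-/- cells, with 0 of 6 tested probe sets called and, with the replicate block, 1 lower and 2 higher. Myeloid genes summed to 343 to 470 against 257 to 291, with 1 of 11 called lower and, with the replicate block, 2 lower and 1 higher. Cortical epithelial genes summed to 231 to 554 against 361 to 882, with 1 of 6, the chemokine gene Ccl25, called higher (log2 difference 2.31, adjusted p = 0.0345 in limma). Most of that list went the other way, with 4 of the 6 below 0 and a median log2 difference of -0.37. The 20 medullary probe sets summed to 4444 to 5538 against 6098 to 6960, a sum in which bright genes such as H2-Aa weigh most. Of the 16 tested, 11 lay above 0 and 5 below, and 0 were called. With the replicate block 2 of these were called lower and 0 higher. Ptprc, which encodes CD45, did not exceed 10.3. The part of these differences in the values of the cell cycle members was not tested.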

How the data were processed

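Total RNA of the sorted cells was measured on 6 1-colour oligonucleotide arrays. As deposited, each probe set has a linear intensity; the authors' reading, background correction and scaling remain not given in the sources used here, and no detection calls were used. After 66 control probe sets were left out, 12422 were used; 10833 had 1 gene symbol in the platform annotation, 396 several and 1193 none, and only the first kind was named. All 91 members matched a RefSeq gene.

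Arrays were quantile normalized, floored at the pooled 20th percentile (1.8) and log2 transformed. Testing required 3 or more of the 6 arrays above the pooled 40th percentile (5.53). Where a group lay under that limit on all its arrays, the fold is written "at least" and divides the other group's geometric mean by the limit. The genotypes were compared in R 4.3.3 using limma 3.58.1 (lmFit, eBayes with a variance trend, 2-sided), with Benjamini-Hochberg adjustment over 7768 probe sets and a threshold of 0.05. The unit is the probe set, since the members are probe sets. A floor shortens the fold of dim probe sets, and the number of arrays limits the precision. The p-values measure the spread between pools, amplification and hybridisation included.

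For pairing, each array's deviation from its genotype mean was correlated across probe sets: same-number arrays gave 0.372, 0.198 and 0.193, and different numbers gave -0.253 to 0.0676. Each same-number pair was over 0.1, so the numbers were taken to pair arrays. This comes from the data, not from the labels, and the member calls with the replicate block rest on it. Deviations within a genotype cancel out, so positive same-number values push the others down.

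The members and gene lists were chosen with earlier results of these data known. Named are members called in either fit, up to 4 tested members per role with the smallest p, well-known cycle genes whatever their values, and genes whose probe sets disagree; others were named after their values were seen. Alternatives were other scalings, floor, filter, 1 probe set per gene, no variance trend, array weights, the replicate block, a 3' bias term (log2 of the beta-actin ratio) and leaving out each array. The procedure was tested on simulated data. Sequences and promoter letters came from RefSeq windows on GRCm38.p6, with coordinates counted from 1. Plots were made in Python 3.11.15 with matplotlib 3.10.9.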

Additional observations from a re-analysis of the deposited data

How the results depend on the processing

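Counts of member probe sets called lower or higher stayed at 0 under every alternative run except the replicate block, the paired fit, which called 3 higher. Over all tested probe sets, lower and higher calls numbered 107 and 27, and became 102 and 71 on the values as deposited, 97 and 55 under median scaling, 10 and 6 with no filter, 166 and 72 with array weights and 262 and 150 with the replicate block, so the split between directions depends on the scaling. Leaving out 1 array gave 25 to 79 lower and 2 to 16 higher calls. The members' median log2 difference ranged from -0.047 to 0.21 when 1 array was left out, the highest without wild-type array 3, and was 0.07 on the deposited values and -0.12 with array weights. The replicate block changed the call of no other named member than Ccne1, Cdc42ep4 and Ccnb1ip1. Small differences changed sign. With the 3' bias term this held for Mcm5 (0.26), Rrm1 (-0.41), Cdc25c 102934_s_at (-0.12), Kif20a 160501_at (-0.037), Cdc20 (0.0027), Ccnd2 (-0.13) and Top2a (0.56). With array weights it held for Rrm1 (-0.21), E2f8 103204_r_at (0.0014) and Mcm4 (-0.13), and for Ccnd1 94232_at it held on the deposited values (0.055) and under median scaling (0.056). Leaving out 1 array gave ranges of -0.60 to 0.13 for Mcm5, -0.43 to 0.29 for Rrm1, -0.58 to 0.15 for Rrm2, -0.14 to 0.69 for Cdc25c, -0.045 to 0.49 for Kif20a, -0.017 to 0.50 for Mcm4, -1.03 to 0.51 for Plk1 93099_f_at, -0.032 to 1.06 for Mcm2, -0.31 to 0.21 for Ccnd1, -0.35 to 0.029 for Cdc20, -0.11 to 0.30 for Ccnd2, -0.60 to 0.35 for Mki67 and -0.99 to 0.34 for Top2a. None of these was called in any fit. The cause of each shift was not tested. Many members lie near the dim limit, where signals of a probe set carry little above background.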
